A study of Mus musculus with 24 samples.

Results

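The genes that make, package, take back and break down dopamine were followed in mRNA libraries of the nucleus accumbens (NAc) of stressed and unstressed mice. They are *Th*, *Ddc*, *Slc18a2*, *Slc6a3*, *Maoa* and *Maob*. These 6 genes were picked by symbol, for their place in the pathway, and matched by Ensembl identifier to 6 of the 38293 genes in the table of read counts. All 6 passed the filter on low counts, as 18593 genes did in all. The mice were C57BL/6J, 9 weeks old by the sample labels, and females were taken in estrus or proestrus. The groups were nonstressed males (NSM), stressed males (SM), nonstressed females (NSF) and stressed females (SF), with 3 mRNA libraries in each. Stressed mice had gone through Subchronic Variable Stress (SCVS), several days of changing stressors, and nonstressed mice had not. Each library was a pool of 10 bilateral punches from 5 mice, so that differences between single mice are not seen.

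Tyrosine hydroxylase (*Th*) turns tyrosine into L-DOPA, the rate-limiting step, and aromatic L-amino acid decarboxylase (*Ddc*) turns L-DOPA into dopamine. The vesicular monoamine transporter (*Slc18a2*, VMAT2) loads dopamine into vesicles, the dopamine transporter (*Slc6a3*, DAT) takes it back up from the synapse, and the monoamine oxidases (*Maoa*, *Maob*) break it down. Most dopamine in the NAc is released from axons whose cell bodies lie in the midbrain, outside the punch, so the punch holds the terminals but not most of the mRNA of the cells they belong to.

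Between 41076780 and 60867747 reads were counted per library. Markers of striatal projection neurons such as *Drd1a*, *Drd2* and *Ppp1r1b* were plentiful, with 9 of 9 tested and a summed level of 4368 to 5570 CPM (counts scaled to the size of the library, here with TMM factors) over the 12 libraries. Of 12 midbrain dopaminergic neuron markers, 4 passed the filter. The transcription factor genes *Foxa1* and *Foxa2* were at 0 reads in every library, and 7 of the 12, among them *Pitx3*, *En1* and *Lmx1a*, had at most 5 reads in any library. The marker genes that passed were not all scarce, with a mean of 780 reads per library for the carrier gene *Slc10a4*, 285 for the receptor gene *Ret* and 288 for the transcription factor gene *Nr4a2*. *Ret* stood at 2.85 to 3.92 CPM in SM, below the libraries of NSM (4.98 to 5.98), NSF (4.91 to 8.98) and SF (4.77 to 9.10). Markers of cortical glutamatergic neurons varied most: their sum was 5.43 to 21.3 CPM in NSM, 47.9 to 197 in SM, 21.3 to 364 in NSF and 42.6 to 114 in SF. The libraries NSF1 and NSF3 held the most, at 256 and 364 CPM, and NSF2 the least of its group. Markers of red blood cells summed to 16.9 to 21.1 CPM in NSM, 30.4 to 35.5 in SM, 23.5 to 29.6 in NSF and 22.8 to 25.1 in SF. Those of choroid plexus summed to 12.5 to 79.2 CPM in NSM, 9.59 to 12.7 in SM, 9.26 to 11.5 in NSF and 9.68 to 12.2 in SF. One of them, *Ttr*, had 3743 reads in NSM1, and the next highest library was NSM3 with 126. The part of choroid plexus in the values of NSM1 was not tested.

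The members lie on 5 chromosomes of NCBIM37, the build of the counts. *Th* (ENSMUSG00000000214) spans chr7:150078657-150117033 on the minus strand and *Ddc* (ENSMUSG00000020182) chr11:11714104-11798047 on the minus strand. *Slc18a2* (ENSMUSG00000025094) spans chr19:59335368-59370502 and *Slc6a3* (ENSMUSG00000021609) chr13:73674195-73716120, both on the plus strand. *Maoa* (ENSMUSG00000025037) at chrX:16196824-16264944 on the plus strand and *Maob* (ENSMUSG00000040147) at chrX:16286408-16394492 on the minus strand are neighbors that end toward each other. All are annotated as protein coding, and none shares exon bases with another gene. *Ddc* overlaps 1 gene on the other strand, *1700042O10Rik*, in introns only.

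Of the 6 members, 5 were found in the RefSeq promoter table (GRCm38.p6), each window running from 250 bases before to 50 bases after an annotated start, and each was found once, letter for letter, in NCBIM37. The windows of *Th*, *Slc18a2*, *Slc6a3* and *Maoa* are shown 5′ to 3′ because they set the genes used in dopamine cells, at very different levels here, beside an enzyme used in many cells. Capitals mark the cAMP response element (CRE, TGACGTCA) and the GC box (GGGCGG, or CCGCCC on the other strand). In NCBIM37 they lie at chr7:150085851-150086150 (minus strand), chr19:59335118-59335417, chr13:73673945-73674244 and chrX:16196574-16196873 (plus strand).
Th: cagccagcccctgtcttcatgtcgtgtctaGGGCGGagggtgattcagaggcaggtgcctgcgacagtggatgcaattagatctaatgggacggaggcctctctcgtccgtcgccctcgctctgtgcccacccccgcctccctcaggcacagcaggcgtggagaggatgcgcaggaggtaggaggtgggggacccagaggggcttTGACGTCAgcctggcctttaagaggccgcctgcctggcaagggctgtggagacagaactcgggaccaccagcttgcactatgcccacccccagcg
Slc18a2: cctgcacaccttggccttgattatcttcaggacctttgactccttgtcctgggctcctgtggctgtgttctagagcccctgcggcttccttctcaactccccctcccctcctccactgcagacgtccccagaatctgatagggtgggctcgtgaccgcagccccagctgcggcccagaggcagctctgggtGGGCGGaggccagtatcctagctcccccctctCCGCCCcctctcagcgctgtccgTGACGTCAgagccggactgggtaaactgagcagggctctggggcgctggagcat
Slc6a3: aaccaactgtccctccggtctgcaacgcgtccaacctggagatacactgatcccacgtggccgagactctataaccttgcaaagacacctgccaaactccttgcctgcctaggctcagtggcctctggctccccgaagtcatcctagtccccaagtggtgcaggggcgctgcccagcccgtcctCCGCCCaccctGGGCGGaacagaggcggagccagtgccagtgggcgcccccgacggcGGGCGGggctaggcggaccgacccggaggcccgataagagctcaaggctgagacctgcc
Maoa: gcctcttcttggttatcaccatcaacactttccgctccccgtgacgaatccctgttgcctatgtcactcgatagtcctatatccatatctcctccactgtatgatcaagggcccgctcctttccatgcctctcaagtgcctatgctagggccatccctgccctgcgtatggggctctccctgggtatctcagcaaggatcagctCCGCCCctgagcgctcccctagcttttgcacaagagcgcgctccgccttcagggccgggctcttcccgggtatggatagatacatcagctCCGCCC

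Counting the annotated start as position 0, *Th* has the CRE at -45 to -38 and *Slc18a2* at -4 to 3, across the start. Of 32851 promoter windows of the same length, 1.79% hold these letters. A GC box, held by 35.7% of windows, stands in the windows of *Th* (1), *Slc18a2* (2), *Slc6a3* (3) and *Maoa* (2). On both strands, 4 other motifs were searched. The NBRE (AAAGGTCA, 1.51% of windows) was found in 1 of 2 windows of *Ddc*, where it contains the estrogen receptor half-site (AGGTCA, 16.3%) and overlaps a TATA box (TATAAA, 13.6%). The glucocorticoid receptor half-site (AGAACA, 19.0%) was found in the window of *Slc18a2* alone among the members. These matches are a description of the letters and do not show that a factor binds there.

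*Th*, the rate-limiting enzyme, was even among males and uneven among nonstressed females. Its level was 10.7, 10.99 and 11.1 CPM in NSM1 to NSM3 and 11.9, 11.2 and 10.9 CPM in SM1 to SM3. In females it was 9.78, 12.7 and 8.90 CPM in NSF1 to NSF3 and 12.3, 11.6 and 14.0 CPM in SF1 to SF3. The male libraries lay close together, with stressed and nonstressed ones overlapping. Among females NSF1 and NSF3 were the lowest of all 12 libraries, whereas NSF2 was higher than 2 of the 3 SF libraries. These values rest on 419 to 771 reads per library.

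*Ddc*, the decarboxylase that follows, was highest in nonstressed males. It stood at 14.2, 11.6 and 14.3 CPM in NSM1 to NSM3, whereas SM1 to SM3 had 12.3, 11.1 and 11.1 CPM. The female libraries NSF1 to NSF3 had 12.9, 11.6 and 9.94 CPM and SF1 to SF3 11.4, 11.9 and 10.2 CPM. NSM1 and NSM3 were the highest of the 12 libraries, but NSM2 lay among those of the other groups, so that NSM overlapped with each of them. *Ddc* was counted with 468 to 804 reads per library.

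*Slc18a2*, the vesicular transporter, was lowest in stressed males. In NSM1 to NSM3 its level was 7.40, 7.52 and 8.07 CPM, and in SM1 to SM3 6.95, 6.59 and 7.07 CPM. NSF1 to NSF3 had 7.51, 8.64 and 7.24 CPM, and SF1 to SF3 had 7.43, 9.21 and 8.80 CPM. The 3 SM libraries were the 3 lowest of the 12, and did not overlap with NSM, NSF or SF. Groups did not overlap for 23.0% of all genes in SM against NSM and for 20.4% in SF against SM. NSF and SF overlapped.

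*Slc6a3*, the plasma membrane transporter and the member most particular to dopamine cells, was close to the limit of what these libraries could measure. It had 24, 14 and 15 reads in NSM1 to NSM3, 14, 20 and 16 reads in SM1 to SM3, 23, 12 and 21 reads in NSF1 to NSF3, and 11, 21 and 17 reads in SF1 to SF3. This equals 0.285 to 0.424 CPM in NSM, 0.352 to 0.425 in SM, 0.198 to 0.518 in NSF and 0.233 to 0.411 in SF. All groups overlapped. The coefficient of variation over the 12 libraries was 26.0%, where counting alone gives 24.2% at such read numbers.

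*Maoa*, the oxidase that also breaks down serotonin and noradrenaline, had the second smallest variation. In NSM1 to NSM3 it was measured at 36.9, 35.0 and 33.9 CPM and in SM1 to SM3 at 38.9, 41.04 and 38.7 CPM. Its levels were 39.4, 35.0 and 35.5 CPM in NSF1 to NSF3 and 35.0, 36.3 and 35.96 CPM in SF1 to SF3. The SM libraries lay above all NSM and all SF libraries, and of the nonstressed libraries NSF1 alone reached them. Such groups without overlap were seen for 23.0% of all genes in SM against NSM and for 20.4% in SF against SM. *Maoa* rests on 1547 to 2121 reads per library.

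*Maob*, an oxidase found chiefly in glia and serotonergic cells, varied the least. NSM1 to NSM3 had 25.6, 24.7 and 23.0 CPM, and SM1 to SM3 had 25.6, 27.2 and 23.4 CPM. NSF1 to NSF3 had 26.9, 25.6 and 25.8 CPM, and SF1 to SF3 had 23.8, 26.9 and 25.7 CPM. Stressed and nonstressed libraries overlapped in both sexes. The NSF libraries all lay above the NSM libraries, although NSM1 and NSF2 both round to 25.6 CPM. These groups did not overlap for 19.5% of all genes.

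**Figure D1:**
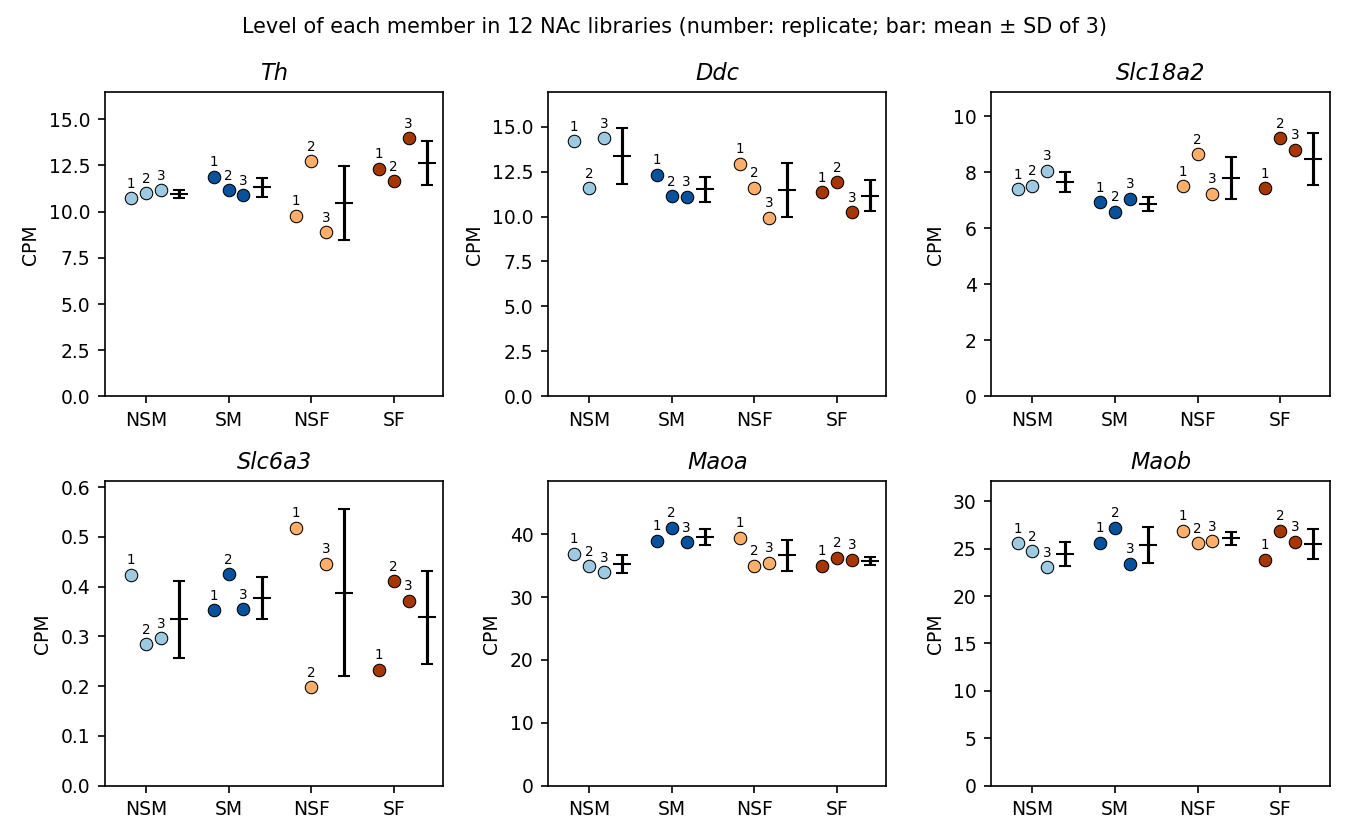
Level of each member in CPM (vertical axis, from 0) in the 12 libraries by group, with each library's replicate number above its point and the mean ± SD of the 3 libraries of a group beside it. *Th* is lowest in NSF1 and NSF3 (9.78 and 8.90 CPM), *Slc18a2* is lowest in the 3 SM libraries, *Maoa* is higher in the SM libraries than in NSM and SF, and *Slc6a3* stays under 0.6 CPM with wide scatter.

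The spread of the members within groups lay on both sides of that of other genes. The SD within groups on the log2 scale was 0.15 for *Th*, 0.15 for *Ddc*, 0.11 for *Slc18a2*, 0.062 for *Maoa* and 0.083 for *Maob*, and 0.45 for *Slc6a3*. Its median over all tested genes was 0.12. Over all 12 libraries the coefficient of variation was 11.7% for *Th*, 11.6% for *Ddc*, 10.5% for *Slc18a2*, 6.01% for *Maoa* and 5.41% for *Maob*. For these 5 genes counting alone would give 2.38% to 5.18%.

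Divided by the length of their exons, the oxidases had the highest level and DAT by far the lowest. The mean over 12 libraries was 9.10 CPM per kb for *Maob*, 8.83 for *Maoa*, 4.80 for *Th*, 2.73 for *Ddc*, 2.03 for *Slc18a2* and 0.104 for *Slc6a3*. *Maob* and *Maoa* did not differ beyond their spread, since their ranges overlapped and *Maob* was higher in 9 of 12 libraries. *Maoa* was 1.84-fold above *Th* and *Th* 1.76-fold above *Ddc*, without overlap of the ranges. *Ddc* was above *Slc18a2* in 12 of 12 libraries, by 1.02-fold to 1.68-fold, but the ranges of the genes overlapped. *Slc18a2* was 13.2-fold to 39.7-fold above *Slc6a3*, and *Th* 27.6-fold to 93.9-fold. The exon lengths are those of all annotated transcripts joined, and a shorter transcript in use would raise the true level per length.

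**Figure D2:**
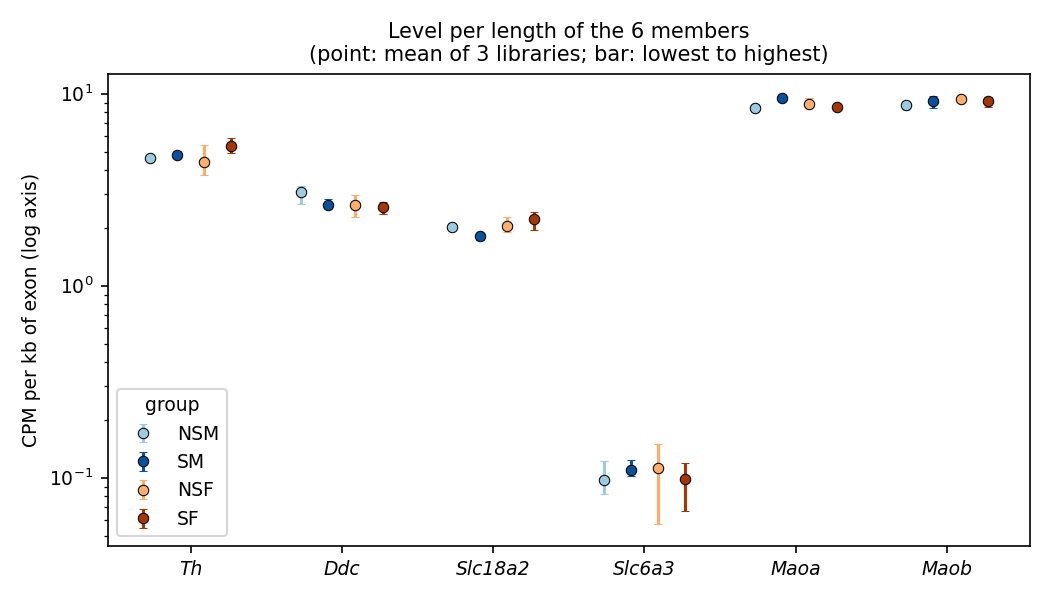
Level per length of the 6 members in CPM per kb of exon (vertical log axis), with the mean of 3 libraries per group as a point and the lowest to highest library as a bar. The oxidases lie near 9 CPM per kb, *Slc6a3* near 0.1, and the groups differ little beside the differences between genes.

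The effect of SCVS in males was compared first (SM against NSM). 0 of the 6 members were called, that is, reached an unadjusted p under 0.05 with a fold change of at least 1.3 by voom and limma, against 6.44% of all tested genes. edgeR's quasi-likelihood test and DESeq2's Wald test also called 0. Without the fold threshold 1 member had a p under 0.05, where 21.5% of all genes did. This was *Maoa*, with 35.3 ± 1.49 CPM (SD, n = 3 libraries) in NSM and 39.6 ± 1.29 in SM, 1.12-fold (95% interval 1.03 to 1.22) and a log2 difference of 0.17 with a standard error of 0.055 (limma, adjusted p = 0.112). *Slc18a2* had 7.66 ± 0.36 CPM in NSM and 6.87 ± 0.25 in SM, a log2 difference of -0.16 with a standard error of 0.098 (limma, adjusted p = 0.376). For *Slc18a2* and *Maoa* the groups did not overlap, which makes 2 of 6 members and was so for 23.0% of all genes.

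The synthesis enzymes did not pass the test in males either. *Ddc* had 13.4 ± 1.55 CPM in NSM and 11.5 ± 0.71 in SM, a log2 difference of -0.22 with a standard error of 0.10 (limma, adjusted p = 0.25), and the 3 SM libraries were below the NSM mean. *Th* had 10.95 ± 0.22 and 11.3 ± 0.51 CPM, a log2 difference of 0.045 (95% interval of the fold 0.874 to 1.22). *Maob* differed by 0.055 on the log2 scale (0.940-fold to 1.148-fold). These intervals leave out a change of 1.3-fold in either direction for *Th*, *Slc18a2*, *Maoa* and *Maob*, that of *Ddc* runs from 0.736-fold to 1.01-fold, and that of *Slc6a3* from 0.672-fold to 1.93-fold. Markers of other cells moved with these differences, and the summed levels of those of cortical neurons, red blood cells, oligodendrocytes (3586 to 3960 CPM in NSM and 4228 to 4284 in SM), microglia (118 to 126 and 134 to 154) and smooth muscle and pericytes (123 to 126 and 130 to 148) did not overlap between NSM and SM. Called higher in SM were 2 of 6 cortical, 3 of 3 red blood cell and 1 of 3 microglia markers (*P2ry12*), and 0 of 4 oligodendrocyte and 0 of 4 smooth muscle markers by limma, with 3 and 2 at an unadjusted p under 0.05. Of the dopaminergic markers *Ret* was called lower (0.648-fold, limma, adjusted p = 0.206) and *Nr4a2* higher (4.47-fold, adjusted p = 0.206). *Nr4a2* had its highest reads in SM2, SM3, NSF1 and NSF3 (477, 577, 534 and 670), the libraries richest in cortical markers. With the mean cortical marker level as a covariate the log2 difference of *Maoa* was 0.13 (limma, adjusted p = 0.436), that of *Slc18a2* -0.056 (adjusted p = 0.863) and that of *Ddc* -0.17 (adjusted p = 0.581). As the cortical sums did not overlap between NSM and SM, this fit does not separate cortical content from stress in males. The part of the other markers was not tested. In pooled tissue, fewer cells of a type and less RNA per cell cannot be told apart.

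In females (SF against NSF) *Th* was the member that came closest to a call. 0 of 6 members were called by limma, against 1.73% of all tested genes, and edgeR and DESeq2 called 0 as well. Without the fold threshold 1 of the 6 had a p under 0.05, where 4.23% of all genes did. *Th* had 10.47 ± 2.0 CPM in NSF and 12.6 ± 1.19 in SF, 1.2-fold (1.02 to 1.41), a log2 difference of 0.26 with a standard error of 0.11 (limma, adjusted p = 0.948). An adjusted p under 0.05 was reached by 0 genes in this comparison, and 786 had an unadjusted p under 0.05. No member had groups without overlap, as 11.3% of all genes had. The libraries NSF1 and NSF3 had the lowest *Th* and also held the most cortical marker reads. Leaving out both leaves NSF2 as the lone NSF library and assumes that it varies like the other groups. NSF2 had 12.7 CPM beside the SF mean of 12.6, so a smaller difference was set by the choice of libraries. The log2 difference was then -0.0039. Without NSF2 it was 0.43 (limma, adjusted p = 0.0687), and *Th* was then called, and over all fits that left out 1 library it ran from 0.15 to 0.43. With the cortical marker level as a covariate it was 0.17, and its unadjusted p was no longer under 0.05.

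The other members had small differences in females. *Slc18a2* had 7.80 ± 0.74 CPM in NSF and 8.48 ± 0.93 in SF, a log2 difference of 0.11 with a standard error of 0.093 (limma, adjusted p = 0.948). *Ddc* had 11.5 ± 1.5 and 11.2 ± 0.84 CPM (0.834-fold to 1.146-fold), and *Maob* 26.1 ± 0.72 and 25.5 ± 1.55 CPM (0.886-fold to 1.08-fold). *Maoa* had 36.6 ± 2.43 CPM in NSF and 35.7 ± 0.67 in SF (0.901-fold to 1.06-fold). *Slc6a3*, with 0.387 ± 0.168 and 0.338 ± 0.093 CPM, could lie anywhere between 0.569-fold and 1.63-fold.

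**Figure D3:**
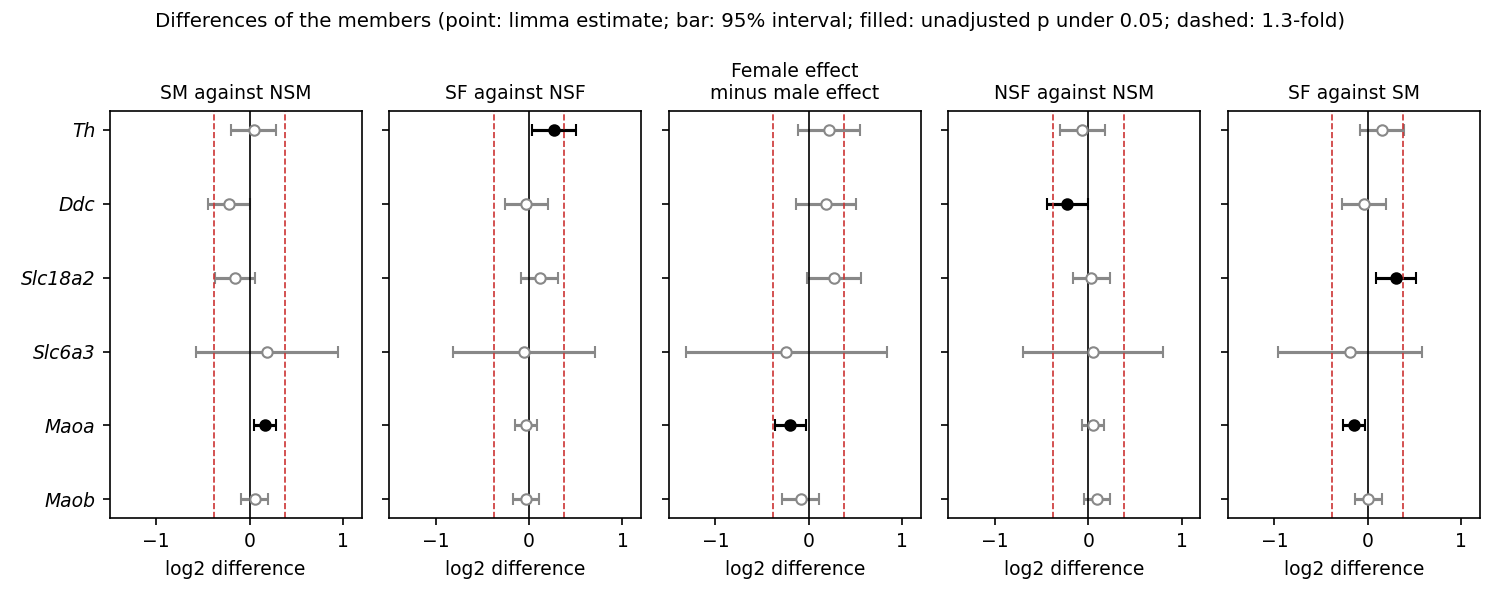
Difference of each member on the log2 scale (horizontal axis) in 5 comparisons, with limma's estimate as a point and the 95% interval as a bar. Filled points have an unadjusted p under 0.05, dashed lines mark a 1.3-fold change, and no filled point lies beyond them.

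Whether the effect of SCVS differed between the sexes was tested as an interaction, the female minus the male log2 difference. 0 of 6 members were called by limma (4.42% of all genes), and 0 by edgeR and DESeq2. 1 of the 6 had an unadjusted p under 0.05 (9.55% of all genes), again *Maoa*, with -0.20 and a standard error of 0.078 (limma, adjusted p = 0.457). In the same test 6 of 6 cortical and 3 of 3 red blood cell markers were called negative, and the part of the red blood cell markers was not tested. It came from 0.17 in males and -0.031 in females. For *Slc18a2* the difference was 0.27 with a standard error of 0.14 (limma, adjusted p = 0.567), from -0.16 in males and 0.11 in females. For *Th* it was 0.22 (limma, adjusted p = 0.714), which became -0.057 without NSF1 and NSF3 and 0.39, a call, without NSF2. Without NSF1 and NSF3 the interaction was -0.13 for *Maoa* and 0.13 for *Slc18a2*. That fit leaves NSF2 as the lone NSF library, so these values and that of *Th* rest on it.

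Nonstressed females were compared with nonstressed males, the groups that serve as controls above. 0 of 6 members were called by limma (5.31% of all genes) and 0 by edgeR and DESeq2. 1 had an unadjusted p under 0.05 (15.4% of all genes). *Ddc* had 13.4 ± 1.55 CPM in NSM and 11.5 ± 1.5 in NSF, 0.856-fold (0.735 to 0.997), a log2 difference of -0.22 with a standard error of 0.10 (limma, adjusted p = 0.314). *Maob*, whose groups did not overlap as those of 19.5% of all genes, had 24.4 ± 1.3 CPM in NSM and 26.1 ± 0.72 in NSF, a log2 difference of 0.093 (limma, adjusted p = 0.532). *Th*, *Slc18a2* and *Maoa* differed by -0.062, 0.034 and 0.051 on the log2 scale. Cortical markers differed in this contrast too, with 5 of 6 called higher in NSF than in NSM, and so did 2 of 3 markers of red blood cells. With the cortical covariate the log2 difference of *Ddc* was -0.18 (limma, adjusted p = 0.970). Those of *Maob*, *Th*, *Slc18a2* and *Maoa* were 0.11, 0.18, 0.14 and 0.0063. As the mean cortical marker level did not overlap between NSM and NSF, this fit does not separate cortical content from sex. The part of the red blood cell markers was not tested.

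Between the stressed sexes (SF against SM) the transporter *Slc18a2* was higher in females and the oxidase *Maoa* lower, both by less than 1.3-fold. 0 of 6 members were called by limma (5.55% of all genes), and 0 by edgeR and DESeq2, but 2 of 6 had an unadjusted p under 0.05 (16.4% of all genes). The same 2 genes had groups without overlap (20.4% of all genes). *Slc18a2* had 6.87 ± 0.25 CPM in SM and 8.48 ± 0.93 in SF, 1.23-fold (1.07 to 1.43), a log2 difference of 0.30 with a standard error of 0.098 (limma, adjusted p = 0.148). Without SF1 it was 0.39, past the fold threshold. *Maoa* had 39.6 ± 1.29 CPM in SM and 35.7 ± 0.67 in SF, 0.904-fold (0.832 to 0.981), a log2 difference of -0.15 with a standard error of 0.055 (limma, adjusted p = 0.207). With the cortical marker covariate these differences were 0.27 and -0.13. Here 0 of 6 cortical markers were called by limma, with 0 at an unadjusted p under 0.05, but their median log2 difference was -1.0. Their sums varied widely within both groups, from 47.9 to 197 CPM in SM and from 42.6 to 114 CPM in SF. Of the red blood cell markers 2 of 3 were called lower in SF (*Hba-a1* and *Alas2*), 3 of 3 had an unadjusted p under 0.05, and their sums did not overlap. *Ret* was called higher in SF, 2.04-fold (limma, adjusted p = 0.0992), as was the endothelial glucose transporter gene *Slc2a1*, 1.32-fold (adjusted p = 0.00812). The part of these markers in the differences of the members was not tested. *Th* differed by 0.16, *Ddc* by -0.040, *Slc6a3* by -0.19 and *Maob* by 0.0056.

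Averaged over both sexes, the estimated effects of SCVS on the members ran from 0.917-fold to 1.11-fold. 0 of 6 were called by limma (3.38% of all genes) or by edgeR and DESeq2, and 0 of 6 had an unadjusted p under 0.05, where 18.7% of all genes did. *Th* had the lowest p, with a log2 difference of 0.15 and a standard error of 0.078 (limma, adjusted p = 0.308). The others lay between -0.12 (*Ddc*) and 0.068 (*Maoa*). The median over the 6 members was 0.039, beside -0.0092 over all tested genes. The comparisons share libraries with one another, so they do not count as separate evidence. For a single gene, an exact permutation test of 3 libraries against 3 cannot reach a p under 0.05, and the p values of all differences come from the model fitted across all genes.

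The cofactor, the further breakdown steps and the supply of tyrosine were covered by 21 other genes of the pathway, of which 17 were tested. *Dbh* and *Slc6a2*, which make and take up noradrenaline, and *Slc18a1* were among those that did not pass the filter, with at most 10 reads in any library. In males 1 of 17 was called (6.44% of all genes) and the median log2 difference was -0.018, beside -0.012 over all genes. In females 0 of 17 were called by limma (1.73% of all genes), with 1 at an unadjusted p under 0.05 (4.23% of all genes), and the median was 0.074, beside -0.0039 over all genes.

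*Aldh1a1*, the aldehyde dehydrogenase that oxidizes the aldehyde left by monoamine oxidase and also makes retinoic acid, was the pathway gene called in males. It had 6.74, 7.28 and 5.80 CPM in NSM1 to NSM3 and 13.5, 12.3 and 11.03 CPM in SM1 to SM3. NSF1 to NSF3 had 10.5, 10.9 and 12.2 CPM and SF1 to SF3 11.7, 12.7 and 15.0 CPM. The 3 NSM libraries stood below all 9 others. Groups did not overlap for 23.0% of all genes in SM against NSM and for 19.5% in NSF against NSM. *Aldh1a1* rose 1.86-fold in SM against NSM, a log2 change of 0.89 with a standard error of 0.12 (limma, adjusted p = 0.00372), and was 1.70-fold higher in NSF than in NSM (adjusted p = 0.0192). In SF against NSF the log2 difference was 0.22 (limma, unadjusted p = 0.0505, adjusted p = 0.948), with 3 of 3 SF libraries above the NSF mean. For stress over both sexes *Aldh1a1* was called, at 1.47-fold (limma, adjusted p = 0.0170). The interaction was -0.67 with a standard error of 0.16 (limma, adjusted p = 0.178). With the cortical covariate the male difference was again 0.89 (limma, adjusted p = 0.0764) and that of NSF against NSM 0.77 (adjusted p = 0.828), both again past the call. The mean cortical marker level of NSM did not overlap with that of SM or NSF. This fit therefore does not separate cortical content from stress or from sex. Without NSF1 and NSF3, which leaves NSF2 as the lone NSF library, the interaction was -0.63. The red blood cell markers moved in the same directions in SM against NSM, NSF against NSM and the interaction. In SF against NSF *Hba-a1*, *Hbb-b1* and *Alas2* instead differed by -0.0090, -0.083 and -0.37 on the log2 scale. In SF against SM 2 of 3 were called lower, where *Aldh1a1* differed by 0.096. *Hba-a1*, *Hbb-b1* and *Alas2* were 1.65-fold, 1.68-fold and 1.84-fold higher in SM than in NSM, all called, *Hbb-b1* and *Alas2* were called higher in NSF than in NSM, and 3 of 3 were called negative in the interaction. Their part in the difference of *Aldh1a1* was not tested.

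The breakdown enzyme genes *Aldh2*, *Aldh1b1*, *Akr1b3* and *Sult1a1* had log2 differences between -0.068 and 0.038 in males and between -0.11 and 0.095 in females, and none of them was called in any comparison. *Aldh2*, the mitochondrial aldehyde dehydrogenase, had a log2 difference of 0.25 in SF against SM, below the fold threshold (limma, adjusted p = 0.0979).

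Among the 6 genes of tetrahydrobiopterin, the cofactor of tyrosine hydroxylase, 0 were called by limma for SCVS in either sex, with 2 in males and 0 in females at an unadjusted p under 0.05, where 21.5% and 4.23% of all genes were. The male genes were *Pts*, the synthase (0.18, limma, adjusted p = 0.164), and *Qdpr*, which recycles the cofactor (0.13, adjusted p = 0.204). *Pcbd1*, also of the recycling path, was called higher in SF than in SM. It had 2.27, 2.17 and 2.26 CPM in SM1 to SM3 and 2.50, 3.23 and 3.52 CPM in SF1 to SF3, a log2 difference of 0.45 with a standard error of 0.14 (limma, adjusted p = 0.123). Without SF3 it was 0.35, under the fold threshold. *Gch1*, the first enzyme of cofactor synthesis, had 0.494 to 0.711 CPM in NSM and 0.487 to 0.579 in SM, which overlap, on 22 to 35 reads per library.

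Of the low affinity carriers of monoamines, 1 of 2 was called between the stressed sexes (5.55% of all genes). *Slc29a4* had 4.58, 3.87 and 5.16 CPM in SM1 to SM3 and 5.17, 7.22 and 6.93 CPM in SF1 to SF3, and was called higher in SF, with a log2 difference of 0.50 and a standard error of 0.16 (limma, adjusted p = 0.147). It was no longer called without SM2, at 0.37. *Slc22a3* had a log2 difference of 0.34 in SM against NSM (limma, adjusted p = 0.0659), 1.27-fold and so below the threshold, and of 0.11 in SF against NSF. *Pnmt*, which turns noradrenaline into adrenaline, was called for stress over both sexes (0.53, limma, adjusted p = 0.214) on 12 to 32 reads per library. It was not called by DESeq2, nor without NSF1 and NSF3 (0.39), nor on leaving out any one of NSM1, NSM3, SM3, NSF3, SF2 and SF3 (0.43 to 0.49). Of the amino acid carrier genes *Slc7a5* and *Slc3a2*, 0 were called by limma in any comparison, with *Slc7a5* at an unadjusted p under 0.05 in both comparisons of the sexes.

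**Figure D4:**
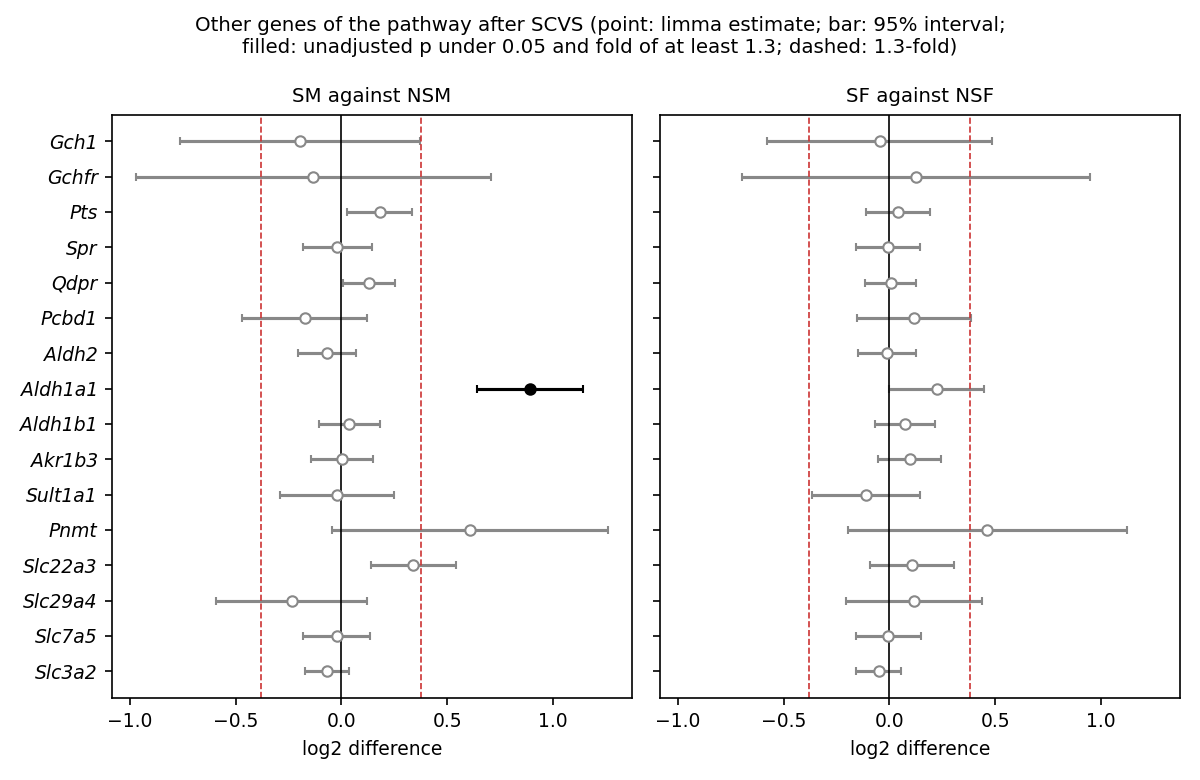
Difference on the log2 scale (horizontal axis) of 16 of the 17 tested other genes of the pathway in stressed against nonstressed males and females, with limma's estimate as a point and the 95% interval as a bar. The filled point, past both the p and the 1.3-fold threshold, is *Aldh1a1* in males.

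No pair of members passed the test for moving together over the 12 libraries. For 15 pairs Pearson's r of the log2 CPM was tested by permutation, and 0 had an adjusted p under 0.05, with 2 at an unadjusted p under 0.05. *Slc6a3* and *Maoa* had r = 0.60 (permutation p = 0.0391, adjusted p = 0.24; Spearman's rho 0.66, p = 0.0248), 0.54 when the 2 most distant libraries were left out, and 0.74 within groups. *Slc18a2* and *Maoa* had r = -0.58 (permutation p = 0.0468, adjusted p = 0.24; rho -0.55, p = 0.072), -0.74 when the 2 most distant libraries were left out, and -0.24 within groups. *Th* and *Ddc*, enzymes of consecutive steps, had r = -0.10 (permutation p = 0.767, adjusted p = 0.96; rho -0.11, p = 0.749). *Th* and *Slc18a2* had r = 0.49 (permutation p = 0.11, adjusted p = 0.276, and rho 0.39, p = 0.219), 0.315 when the 2 most distant libraries were left out, and 0.54 within groups. *Th* and *Slc6a3* had r = -0.56 (permutation p = 0.0579, adjusted p = 0.24; rho -0.62, p = 0.0371), -0.79 when the 2 most distant libraries were left out, and -0.67 within groups. *Slc6a3* and *Maob* had r = 0.55 (permutation p = 0.0639, adjusted p = 0.24; rho 0.67, p = 0.0204), 0.74 and 0.57 in the same order. The scatter of *Slc6a3* is mostly that of counting, which limits what its correlations show.

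Against the mean level of the cortical markers, 0 of 6 members had an adjusted p under 0.05 or an unadjusted permutation p of r under 0.05. *Th* had r = -0.35 (permutation p = 0.268, adjusted p = 0.402; rho -0.26, p = 0.418), -0.20 with the 2 most distant libraries left out, and -0.61 within groups. *Slc6a3*, with 11 to 24 reads per library, had r = 0.54 (permutation p = 0.0718, adjusted p = 0.21; rho 0.59, p = 0.0485), 0.45 with the 2 most distant libraries left out, and 0.67 within groups. For *Ddc*, *Maoa*, *Maob* and *Slc18a2* r was -0.52, 0.49, 0.27 and -0.25.

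**Figure D5:**
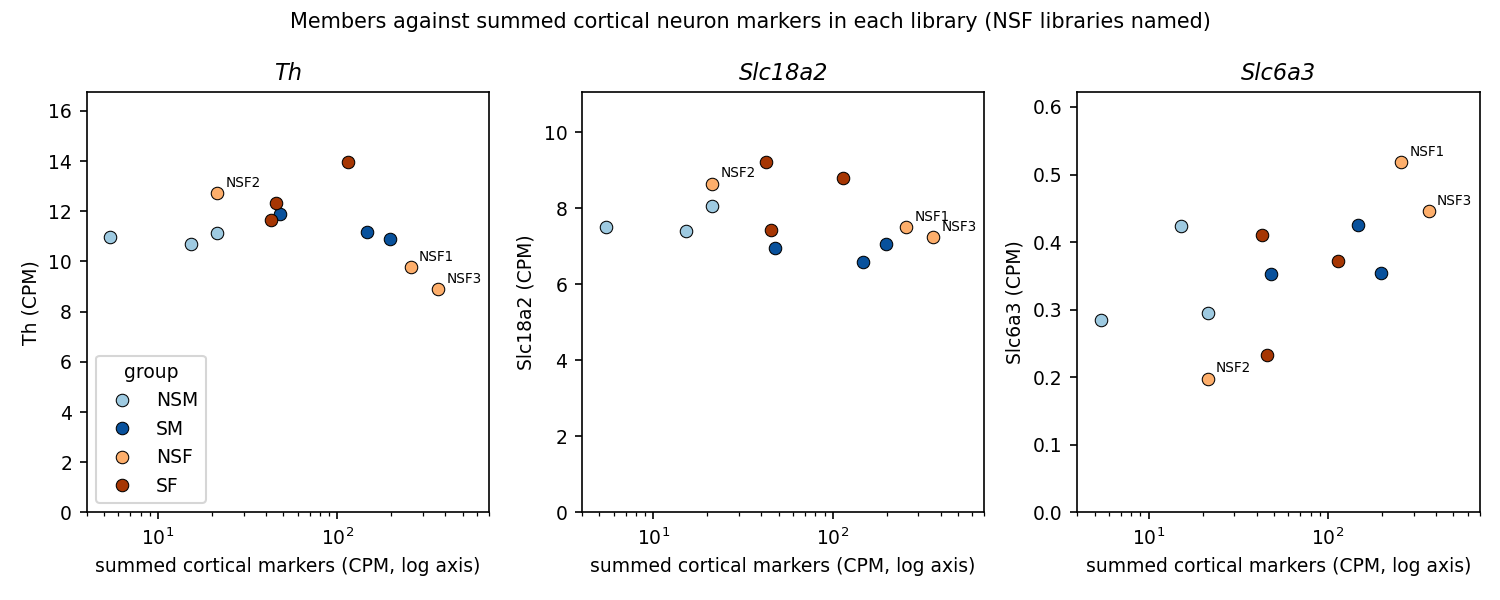
Levels of *Th*, *Slc18a2* and *Slc6a3* in CPM (vertical axes, from 0) against the summed level of 6 cortical neuron markers in CPM (horizontal log axis) in the 12 libraries, colored by group. NSF1 and NSF3, at 256 and 364 CPM of cortical markers, have the lowest *Th*, and NSF2, at 21.3 CPM, the highest *Th* and the lowest *Slc6a3* of its group.

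The genes whose pattern over the 12 libraries was most like that of a member were sought among 17573 genes with a mean of at least 10 reads, by r of the log2 CPM and as a description. For *Th* they included *Fgf3* (r = 0.88), *Chrna3* (0.88), *Unc13c* (0.87) and *Rgs12* (0.87). For *Ddc* they were *Ikzf4* (0.89), *Pwp2* (0.88), *Gtf3c5* (0.87), *5330413P13Rik* (0.86) and *Baiap2l1* (0.86). *Slc18a2* was closest to *C4b* (0.94), *Foxj1* (0.94), *Clec3b* (0.92), *Nkx2-1* (0.92) and *D8Ertd82e* (0.91). *Slc6a3*, whose scatter is mostly that of counting, was closest to *Haus3* (0.89), *Ly6e* (0.89), *Rnf130* (0.89), *Acss2* (0.88) and *Tesk2* (0.87). *Maoa* was closest to *Btf3l4* (0.94), *Cetn3* (0.93), *Snf8* (0.93), *Txnl4b* (0.92) and *Thtpa* (0.91), and *Maob* to *Stk3* (0.91), *Atxn10* (0.89), *Yif1a* (0.88), *Anxa5* (0.87) and *Nudt9* (0.86). None of these lists holds another member. Within groups the r of the 30 genes most like a member, 5 for each, was 0.78 to 0.95.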

How the data were processed

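mRNA of 12 NAc libraries was analyzed. Another 12 libraries, of small RNA, were not used here. The authors aligned the reads with TopHat2 to NCBIM37 and counted them per gene with HTSeq (versions not given in the sources used here). They deposited these read counts without normalization, and the strand setting is not given in the sources used here. Gene symbols were paired with Ensembl identifiers by a gene name table, which named 17795 of the 18593 tested genes. Groups and replicate numbers come from the sample labels, and no column was left out.

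Genes were kept where 80% or more of a group's libraries had a count above 5, scaled by TMM and fitted by voom and limma (R 4.3.3, limma 3.58.1, edgeR 4.0.16), with one mean for each of the 4 groups. Calls needed an unadjusted p under 0.05 together with a change of 1.3-fold or more. Benjamini-Hochberg adjustment ran over all tested genes, and over all pairs for correlations, which were permuted 100000 times (Python 3.11.15, numpy 2.4.6, scipy 1.17.1; log2 CPM with a prior count of 0.5). CPM values are TMM-scaled, and exon lengths come from the GENCODE annotation of NCBIM37. The fits were tested on simulated data. Tried as alternatives were DESeq2 1.42.0, the quasi-likelihood test of edgeR, other scalings, filters and call rules, the 6 libraries of a comparison alone, a cortical marker covariate, a replicate block and each library left out in turn. The fit without the libraries richest in cortical markers, the correlations with these markers, and the alternatives for the called pathway genes were added after seeing the data. Members and gene lists were chosen with earlier results of these data known. Besides the members, pathway genes were named where called, and for each member the 5 genes most like it. Pathway genes named without a call were chosen after their values were seen. The values of a few listed genes are not reported here, though the counts and medians over the lists include them.

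Same-numbered libraries come from different mice. Their deviations from the group means correlated with r = 0.122, 0.112 and 0.145 in females, all over 0.1, and 0.0253, -0.00127 and 0.381 in males. Differently numbered libraries had r of -0.162 to 0.0298 in females and -0.229 to 0.234 in males. A pairing was not tested and the labels name none, so whether the numbers pair the libraries cannot be said. Nothing in the labels says that the pools of a group were raised apart, so the p values measure the spread between pools.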

Additional observations from a re-analysis of the deposited data

Results flagged for a closer look

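*Maoa* was marked by the interaction test, with a log2 difference of -0.20 between the female and the male effect (limma, adjusted p = 0.457). Its unadjusted p was under 0.05, as that of 9.55% of all genes was, and *Maoa* was not called. The effect of SCVS was 0.17 in males, where 3 of 3 SM libraries lay above the NSM mean, and -0.031 in females. The interaction was -0.14 with the cortical marker covariate, where its unadjusted p was no longer under 0.05. It was -0.13 without NSF1 and NSF3, which leaves NSF2 as the lone NSF library.

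*Aldh1a1* was marked by the same test, with a difference of -0.67 between the effects (limma, adjusted p = 0.178, unadjusted under 0.05), from 0.89 in males and 0.22 in females. All 9 libraries outside NSM lay above the 3 NSM libraries. Groups did not overlap for 23.0% of all genes in SM against NSM and for 19.5% in NSF against NSM. In the interaction test 3 of 3 red blood cell markers were called negative too, and their part in both differences was not tested. Groups of 3 libraries are too small for a test of single outlying libraries.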

How the results depend on the processing

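0 of 6 members were called in each comparison under every alternative but these. Without a fold threshold 1 was called in SM against NSM, SF against NSF, the interaction and NSF against NSM, and 2 in SF against SM. With each library left out the count ranged from 0 to 1 in SF against NSF and in the interaction (*Th*, without NSF2) and in SF against SM (*Slc18a2*, without SF1). With the replicate number as a block the count was 0 in each comparison, so the block changed no call. Of 852 member values under alternatives, 783 kept direction and side of the threshold, 9 passed it and 60 changed direction, mostly near 0 or in *Slc6a3*. Except for the sets of libraries and the covariate, which change what is compared, the cause was not tested.

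Scaling by library size gave -0.0044 for *Th* in SM against NSM and -0.022 for *Maob* over both sexes. The cortical covariate gave *Th* -0.089 in the interaction and 0.18 in NSF against NSM, *Slc18a2* 0.0084 over both sexes, and *Slc6a3* -0.52 in males, 0.16 in females, 0.68 in the interaction, -0.65 in NSF against NSM, 0.030 in SF against SM and -0.18 over both sexes. Without NSF1 and NSF3, *Th* was -0.0039 in females, -0.057 in the interaction and 0.20 in NSF against NSM, *Slc6a3* 0.74, 0.54 and -0.74, *Slc18a2* -0.019 and *Maob* 0.0052 in females, *Maoa* 0.043 in females and -0.025 in NSF against NSM, and *Maob* -0.0051 in SF against SM. *Maob* in SF against SM was -0.0099 by DESeq2, -0.0085 with its size factors, -0.0041 with at least 10 reads in every library and -0.0046 in the 6 libraries alone.

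With each library left out, the values that changed direction ranged as follows. *Th* went from -0.23 to 0.043 in NSF against NSM, and *Ddc* from -0.13 to 0.052 in females and -0.099 to 0.018 in SF against SM. *Slc6a3* went from -0.53 to 0.21 in females, -0.71 to 0.012 in the interaction, -0.21 to 0.52 in NSF against NSM, -0.36 to 0.047 in SF against SM and -0.17 to 0.20 over both sexes. *Slc18a2* went from -0.054 to 0.081 in NSF against NSM and -0.048 to 0.023 over both sexes, and *Maoa* from -0.065 to 0.026 in females and -0.010 to 0.084 in NSF against NSM. *Maob* went from -0.067 to 0.014 in females, -0.061 to 0.052 in SF against SM and -0.011 to 0.047 over both sexes. With 11 to 24 reads per library, the 95% intervals of *Slc6a3* between groups reached down to 0.514-fold and up to 1.93-fold, and smaller differences were not detectable at this depth.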
